A study of Mus musculus with 116 samples.

Results

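The cells described here were single cells of C10, a non-transformed line from mouse lung that the labels call alveolar type II epithelial. Of 116 libraries in the series, 56 were labelled as 1 C10 cell, and the 54 with 1000 or more gene counts were kept. Of these, 46 belonged to the set of 48 single C10 cells and 8 to an input series that also held 6 libraries of 3 C10 cells and 6 of 10 C10 cells. The remaining 48 libraries were single SVEC cells and were not used. All C10 cells were untreated and grown by standard culture, and no clone or genetic change is given. RNA came from nanoSPLITS, in which a nanodroplet holding the lysate of a cell is split so that part can be used for RNA and part for protein. The cDNA covered whole transcripts (SMART-Seq chemistry), and 1 read of 150 bases was taken from each fragment.

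Alveolar type II cells make surfactant and serve as progenitors of the flat alveolar type I cells across which gas is exchanged. Both are epithelial cells, held together by cadherin and claudin junctions and carrying a keratin cytoskeleton. The line is studied as a model of that epithelium, and dividing cells of a line pass through the cell cycle out of step with each other.

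Total gene counts of the 54 libraries ran from 83188 to 15385625, with a median of 2119768. The median was 1881704 in the 46 single cells and 10157063 in the 8 libraries of the input series, so the sets differed in depth. A library held a median of 6172 genes with counts (range 538 to 11764). At an equal 100000 counts the median was 4810 genes in the single cells and 3744 in the input series. Replicate 1 of the 1-cell input series stood apart, with 538 genes, 64.6% mitochondrial counts and 95.1% of its reads not aligned. Results that rest on it are given with and without it. The mitochondrial share had a median of 7.29% and reached 31.0% in single cell replicate 24. That cell also had the highest share of reads in no feature among the single cells, 7.48%. Values that rest on that cell are given without it as well, a choice made after seeing the data. Reads carried no molecular identifiers, so all floors cover counting error only. The labels do not say whether cells came from separate cultures, so p-values measure only the spread between these libraries.

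The label was checked first against marker genes. The C10 line markers were present: Crip1, a LIM-domain protein, and Efemp1, a matrix fibulin, had counts in 46 of 46 single cells, and Igfbp4, a secreted binder of insulin-like growth factors, in 45. Crip1 ran from 95.0 to 5668 CPM (the count once all gene counts of the library are scaled to 1000000) with a median of 1011, and Efemp1 from 104 to 1696 CPM with a median of 482. Cdh1, the epithelial cadherin, was listed with counts in 24 of 46 cells, with a median of 0.204 CPM and a highest value of 15.1 CPM. In the median single-cell library 3 counts equal 1.595 CPM, so Cdh1 was at the level of a few reads or none in most cells.

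Alveolar type II genes were close to absent. Of 14 such markers, 7 had no count in any of the 54 libraries: the surfactant proteins Sftpa1, Sftpb, Sftpc and Sftpd, the phosphate transporter Slc34a2 and the transcription factors Nkx2-1 and Cebpa. Over the 178729633 counts of all members, a count of 0 allows a level of up to 0.0168 CPM. The summed level of the list ran from 0 to 180 CPM with a median of 1.88 CPM in the single cells. Abca3, the lipid transporter of lamellar bodies, had counts in 14 of 46 cells.

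General epithelial genes were also low. The list of 18 pan-epithelial markers summed to 34.2 CPM in the median cell (0 to 270), and Cldn3, Cldn4, Cldn7 and Pkp3 had no count in any member. Of the 18, 12 had counts in at least 1 single cell and 3 in 50% or more of the single cells. Epcam was found in 1 of 46 cells, Krt18 in 3 and Krt8 in none, while Krt8 had counts in 4 of 8 input libraries. The 21 mesenchymal markers summed to 14610 CPM in the median cell (9277 to 29426), and 10 of the 21 had counts in 50% or more of the single cells. Sparc, Vim, Dcn, S100a4 and Col1a1 had counts in 46 of 46 cells. Cdh2, the neural cadherin, had counts in 42 cells with a median of 103 CPM. Thy1 and Lum, both fibroblast markers, had no count in any member.

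The 8 alveolar type I markers summed to 1007 CPM in the median cell (18.4 to 3034). Of that list, Cav1 had counts in 44 cells and Pdpn in 45, and Ager, Aqp5 and Akap5 were at 0 in all members. The endothelial list had a median of 2.25 CPM with 9 of 18 genes at 0 in all members, and the leukocyte list a median of 0 with 7 of 12 genes at 0. The data thus went against the label of alveolar type II epithelium by these markers, and the libraries are called C10 one-cell libraries below.

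**Figure D1:**
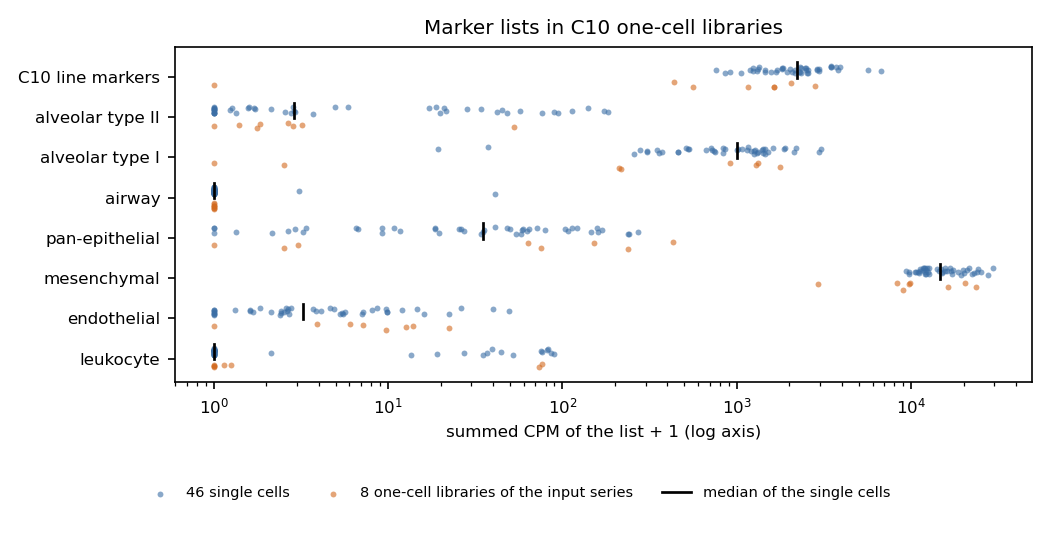
Summed CPM of 8 marker lists (log axis, with 1 added) in 46 single cells and 8 one-cell libraries of the input series; each point is 1 library and the bar is the median of the single cells. Mesenchymal sums lie between 9277 and 29426 CPM in the single cells, whereas alveolar type II sums lie between 0 and 180 CPM.

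The most abundant messages were ranked per kilobase of transcript over nuclear protein-coding genes, so that genes can be compared. The 20 leading genes took a median of 6.56% of nuclear counts (3.25% to 9.51%). Tmsb4x, which binds actin monomers, came first with a median of 13947 (2199 to 33443) on this scale, counts per kilobase after scaling to 1000000. Ftl1, the ferritin light chain, followed at 11067 (7152 to 24958), and Lgals1, galectin-1, at 9283 (5766 to 23175). Ppia, the prolyl isomerase cyclophilin A, stood at 6698 (3659 to 9417). Each of these genes had counts in 46 of 46 cells, and Tmsb4x varied most among the 4.

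Several of the 20 genes shared a role. Cytoskeletal genes were Tmsb4x, the myosin light chain Myl12a and the actin-severing Cfl1. Calcium-binding and annexin genes were S100a4, S100a11, S100a6 and Anxa1. Sparc, a matrix glycoprotein, had a median of 5605 scaled counts per kilobase (873 to 12819), and Cd63, a tetraspanin of late endosomes, 5682 (3055 to 9557). Mt1, a metallothionein, had 3930 (674 to 15150). Rpl38, Rpl23a and Fau belong to the ribosome, and Ndufa4 and Atpif1 to mitochondrial energy production. Cstb, Mif and Cd63 complete the group with protease inhibition, cytokine and endosome roles. S100a6 was the last inside the rank limit at 3477 and Rpl35 the first outside at 3466, so the limit does not separate levels.

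Mitochondrial transcripts were set apart because the length scale covered nuclear genes. COX1, a subunit of cytochrome oxidase, had a median of 7366 CPM (3784 to 23947), and CYTB, of the third respiratory complex, 7230 CPM (4590 to 27381). ND1, of the first complex, had 6001 CPM (3629 to 18961). The ribosomal RNA mt-Rnr2 had 18131 CPM (11327 to 124339). The highest value of each was replicate 24, and without it the highest were 11828, 14042, 9785 and 32613 CPM for COX1, CYTB, ND1 and mt-Rnr2. The mitochondrial genome was thus read in every single cell.

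**Figure D2:**
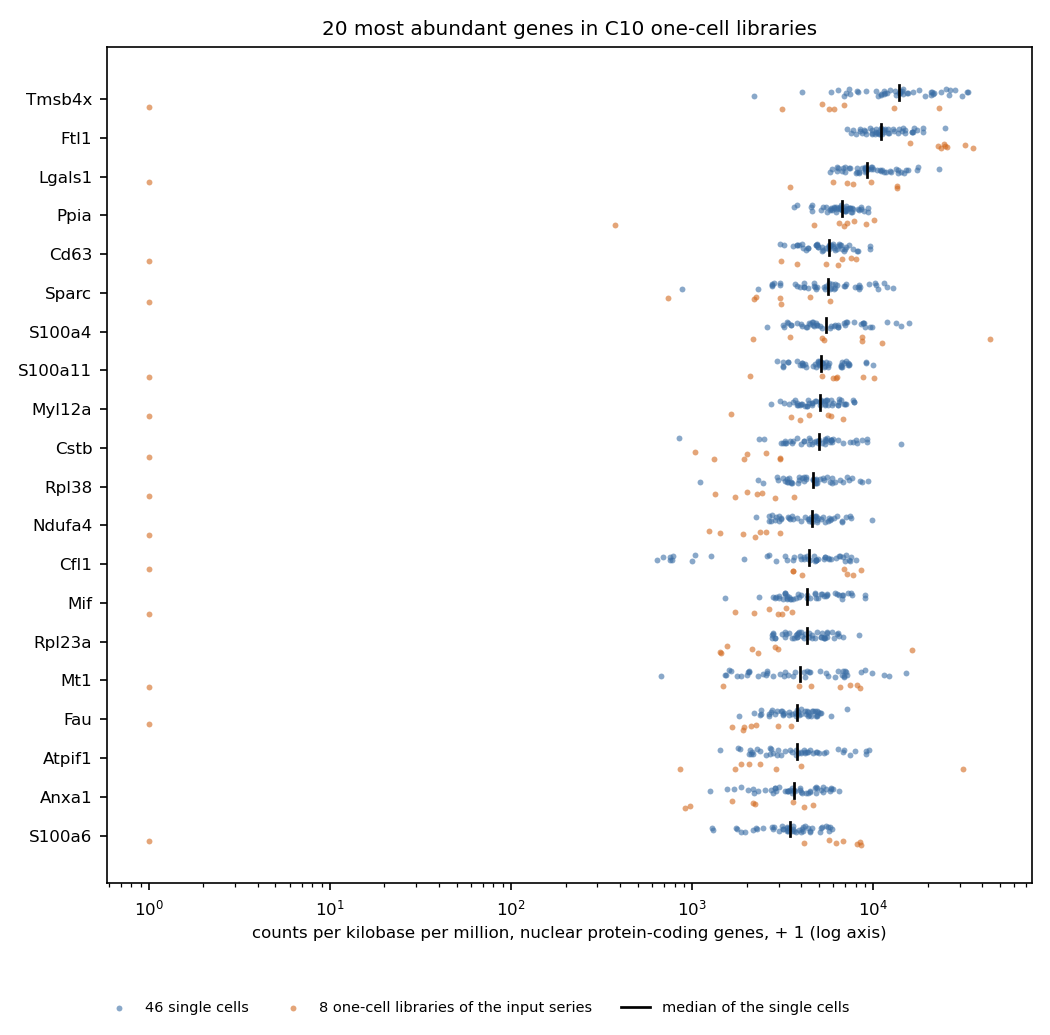
Scaled counts per kilobase (log axis, with 1 added) of the 20 most abundant nuclear protein-coding genes, 1 point per library, with the median of the single cells as a bar. Points at the left edge are input replicate 1, and Tmsb4x spans 2199 to 33443 in the single cells.

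The levels were then compared between the 46 single cells and the 8 one-cell libraries of the input series with edgeR's quasi-likelihood test. Of 12303 genes tested, 15.1% were called at an adjusted p of 0.05 in either direction, 444 higher and 1408 lower in the single cells. Of the 20 abundant genes, 3 were called, a share near that background. The median log2 fold change over all genes was -0.355 with TMM scaling and 0.187 with library totals. Changes below are to be read relative to that shift. With totals, 533 genes were called higher and 937 lower. DESeq2 called 1799 genes, 784 higher and 1015 lower, of which 799 were among the 1852 of edgeR. With limma 641 were called higher and 515 lower, and with edgeR and no filter 2299 higher and 2066 lower, so the balance of directions turned with the method and the filter. Of the limma calls, 541 were among those of edgeR.

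Ferritin had the smallest adjusted p among the named genes. Fth1, the ferritin heavy chain, ran from 418 to 3623 CPM with a median of 1772 in the single cells, and from 2625 to 33368 CPM with a median of 16490 in the input series. The lowest input library was replicate 1, and without it the input series began at 7398 CPM, so that the groups did not overlap. Its log2 fold change was -3.74 with an edgeR adjusted p of 1.25e-24. Ftl1 had a median of 5473 CPM (2727 to 13362) against 11005 CPM (4633 to 17280), a log2 fold change of -1.49 with an edgeR adjusted p of 2.80e-10. The libraries of 10 cells resembled the input series in level, with medians of 17594 CPM for Fth1 and 11436 CPM for Ftl1. The 2 sets were prepared as separate series, and set and cell state cannot be told apart. Both calls were kept with library totals, DESeq2, limma and without replicate 1, with log2 fold changes of -2.93 to -4.42 for Fth1 and -0.84 to -2.14 for Ftl1.

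S100a6 and S100a4, both calcium-binding proteins, were called lower in the single cells, with log2 fold changes of -1.32 and -0.74 and edgeR adjusted p of 0.00259 and 0.0443. The S100a4 call was lost without replicate 1 (log2 fold change -0.18, edgeR adjusted p 0.789) and with library totals (edgeR adjusted p 0.864). The S100a6 call was lost with library totals (edgeR adjusted p 0.268) and its direction turned with limma (0.51). When tried on simulated data of this design, edgeR also called many unchanged genes, and limma called some. At a simulated log2 change of 4, 70.1% of edgeR calls and 44.3% of limma calls were false. With no change, edgeR called 86 of 11133 genes and limma 4. DESeq2 was not tried in this way. A call from edgeR alone is thus tentative, and a shared limma call does not make it certain.

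The most constant genes were those with the smallest SD of log2(CPM + 1) over the 46 single cells, among 1043 genes eligible by level and detection. The 15 genes had SDs from 0.37 to 0.45, against a median of 1.10 over the eligible genes. Rpsa, a ribosomal protein and laminin receptor, was the most constant with an SD of 0.37 and values from 584 to 1791 CPM (median 1042). Nme2, a nucleoside diphosphate kinase, followed Rpsa, LOC118568312 and ATP6 with an SD of 0.40 and values from 829.4 to 3174 CPM (median 1789). Myl12a had an SD of 0.40 and Ppia one of 0.42. Hsp90ab1, the constitutive cytosolic chaperone, ran from 1399 to 4376 CPM with an SD of 0.43.

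By role, Rpsa, Rpl4 and Rpl13a are ribosomal, and ATP6, ND1, COX1, Atp5g3 and Slc25a4 serve oxidative phosphorylation, the last as the ATP carrier of the inner membrane. Dynlt1c, a dynein light chain, was the last inside the rank limit at 0.447 and Rplp0 the first outside at 0.453. In the 7 input libraries other than replicate 1, which took no part in the ranking, 15 of 15 genes lay in the lower 50% of SDs and 5 in the lowest 10%. These SDs were not taken relative to level, although SD falls as level rises, and the part of level was not tested. The 15 were chosen for small spread over libraries that enter the test between the 2 sets, so their share called is not comparable with the background. Between the 2 sets, 4 of 15 were called by edgeR, with 15.1% as background: ATP6, COX1, ND1 and LOC118568312, each lower in the single cells. ATP6, COX1 and ND1 are mitochondrial, and input replicate 1 held 64.6% mitochondrial counts. Without that library the list of mitochondrially encoded proteins lost its call (log2 difference -0.46, permutation, adjusted p = 0.0872). That test is of the summed list, and it does not show whether the edgeR calls of ATP6, COX1 and ND1 hold without replicate 1. The call of LOC118568312 was lost with library totals (edgeR adjusted p 0.152) and with limma (adjusted p 0.284). Of the 15 genes, 1 was kept when the SD was taken relative to its trend with level, 5 with TMM-scaled CPM and 9 with the CV, so constancy depended on the measure. Without replicate 24, 8 of the 15 were kept, ATP6 came first with an SD of 0.32 and Rpsa was the ninth with 0.37.

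The most variable genes were ranked by how far their SD stood above the trend, among 1564 genes with counts in at least 90% of the cells. Fn1, fibronectin, had a median of 475 CPM and ran from 0 to 14750 CPM, with replicate 24 highest. Replicate 24 is the cell with the highest mitochondrial share, whose part in this value was not tested. Without it Fn1 had a median of 403 CPM, reached 5743 CPM and remained the first of the ranking, and 17 of the 20 genes were kept. Malat1, a nuclear long noncoding RNA, had a median of 677 CPM and ran from 5.81 to 71160 CPM, with replicate 1 at the top and replicate 11 next at 17147 CPM. For both genes 1 library lay far above the rest. Acta2, smooth muscle actin, ran from 0 to 6700 CPM with a median of 1139. Prss23, a serine protease, ran from 0 to 4030 CPM with a median of 1091, and Lpl, lipoprotein lipase, from 1.76 to 4541 CPM with a median of 910.

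The other variable genes had varied roles. Cav1, the coat protein of caveolae, ran from 0 to 2955 CPM with a median of 884. Cyp1b1, a cytochrome P450, ran from 0 to 1398 CPM with a median of 289, and Gsta4, which conjugates lipid aldehydes to glutathione, from 0 to 1529 CPM with a median of 391. Lamp2 is a lysosomal membrane protein, Vps35 part of the retromer, Arpc5 part of the complex that branches actin, Psmc6 part of the proteasome and Eif2s1 a translation initiation factor. Each of these 5 fell to 0 in at least 1 cell, and a 0 widens an SD on the log scale. By squared CV of CPM above its trend, Fn1, Malat1, Acta2, Prss23 and Lpl were kept and the others of the 20 were not. The part of missed detection in this ranking was not tested. The median SD of the 20 was 2.50, against 1.52 over the genes ranked.

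In the 7 input libraries, 18 of the 20 stood above the trend of that set, against 48.2% of all ranked genes. In the 6 libraries of 10 cells, 16 of the 20 did, against 49.0%. Across the 1564 genes, the distance from the trend had a Spearman rho of 0.46 between the single cells and the 7 input libraries. These genes share libraries and depth, so the rho is a description. Between the 2 sets 0 of 20 genes were called by edgeR, against the 15.1% background. The 20 were chosen for wide spread over libraries that enter this test, and wide spread makes a call less likely. The count therefore does not show whether their levels agree between the sets. Fn1, Malat1, Prss23, Lpl and Acta2 were kept in 5 of 5 other rankings, and Rpf2, a ribosome assembly factor, in 0 of 5.

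**Figure D3:**
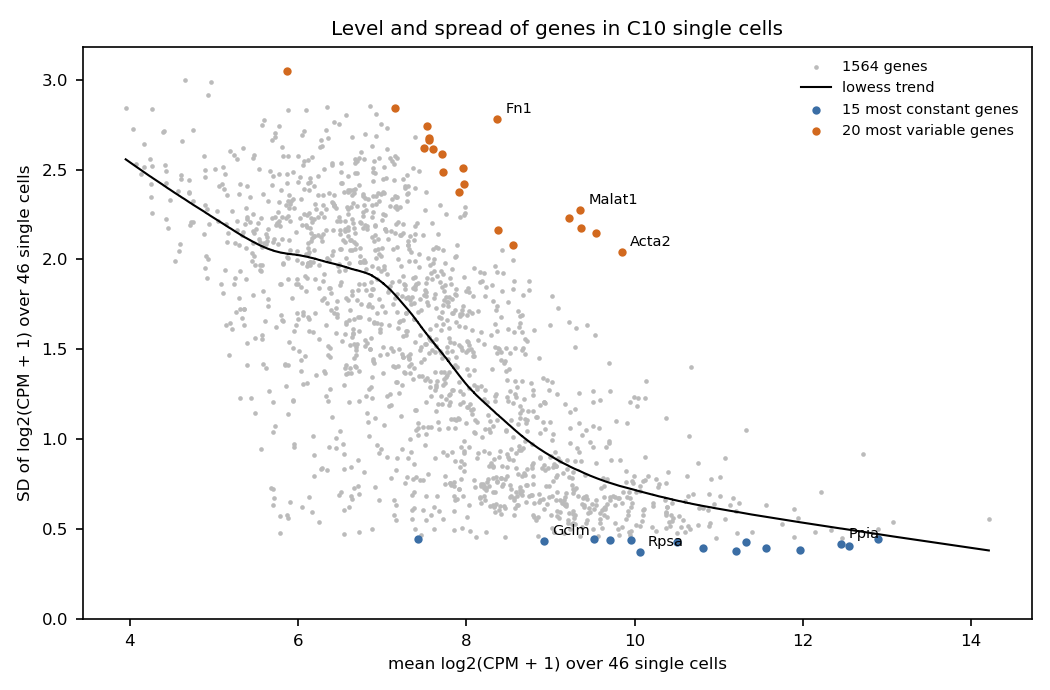
SD against mean of log2(CPM + 1) over 46 single cells for 1564 genes, with the lowess trend as a line. The 15 most constant genes have SDs of 0.37 to 0.45, and Fn1 and Malat1 stand far above the trend.

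Genes on in some cells and off in others were ranked by their median CPM in the cells with counts, among 5735 genes found in 25% to 75% of cells. Birc5, survivin of the chromosomal passenger complex, had counts in 29 of 46 cells and reached 1509 CPM. Pttg1, securin, had counts in 32 cells and reached 2290 CPM. Hmgb2, a chromatin protein, had counts in 31 cells and reached 1935 CPM. The further genes were Spc25 of the kinetochore (27 cells), Mad2l1 of the spindle checkpoint (28), Smc2 of condensin (20) and Shcbp1 (18), with Gpm6a (19), Upk1b (31) and Pnrc2 (32). In the 6 libraries of 10 cells, each of the 10 genes had counts in 5 or 6.

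Cell division genes made up much of this class. Of the 10 genes, 3 were in the G2/M list, namely Birc5, Pttg1 and Hmgb2. Of the top 50, 13 were in the G2/M list, whereas 0.785% of the eligible genes were. The S phase list held 4 of the top 50, and its share of the eligible genes was not taken. Over the 46 cells, 21 had counts for all 3 G2/M genes and 7 had none of them. Spc25 and Hmgb2 had a Spearman rho of 0.81, and Birc5 and Mad2l1 likewise 0.81, over these 46 cells. Gpm6a, a neuronal membrane glycoprotein, and Upk1b, a uroplakin, did not follow these genes, with rho of -0.02 and 0.01 to Birc5.

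Promoters of G2/M genes often carry the cell cycle homology region (CHR), searched as TTTGAA, and the CCAAT box, searched as CCAAT, each on both strands over 250 bases before the start in RefSeq's GRCm38.p6 table. A promoter was found for 52 of the 60 G2/M genes, and 40.4% of them held TTTGAA and 76.9% CCAAT. Over all 27025 genes with a promoter the shares were 18.3% and 37.5%. In the S phase list 16.7% held TTTGAA and 63.9% CCAAT. A promoter was found for 8 of the 10 on or off genes, of which 4 held TTTGAA and 4 CCAAT. Mad2l1, Pttg1 and Birc5 held neither, and Gpm6a, which did not follow the cycle genes, held TTTGAA. The 150 bases before the start are shown for 3 of the on or off genes, because they differ in these letters, with matches in capitals: Hmgb2 (chr8:57511693-57511842, plus strand), Spc25 (chr2:69206214-69206363, minus strand) and Birc5 (chr11:117849087-117849236, plus strand). Hmgb2 holds 1 TTTGAA and 2 CCAAT in this window, Spc25 0 and 2, and Birc5 0 and 0.
Hmgb2: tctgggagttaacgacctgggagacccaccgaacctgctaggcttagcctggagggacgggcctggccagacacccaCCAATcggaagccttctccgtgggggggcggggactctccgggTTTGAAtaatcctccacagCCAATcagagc
Spc25: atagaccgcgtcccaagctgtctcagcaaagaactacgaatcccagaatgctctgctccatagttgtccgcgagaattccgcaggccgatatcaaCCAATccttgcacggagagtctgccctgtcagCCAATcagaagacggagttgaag
Birc5: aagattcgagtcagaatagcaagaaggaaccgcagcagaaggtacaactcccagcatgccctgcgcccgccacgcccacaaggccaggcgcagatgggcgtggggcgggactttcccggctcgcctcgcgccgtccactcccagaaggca
A match is a run of letters and not a measured site.

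**Figure D4:**
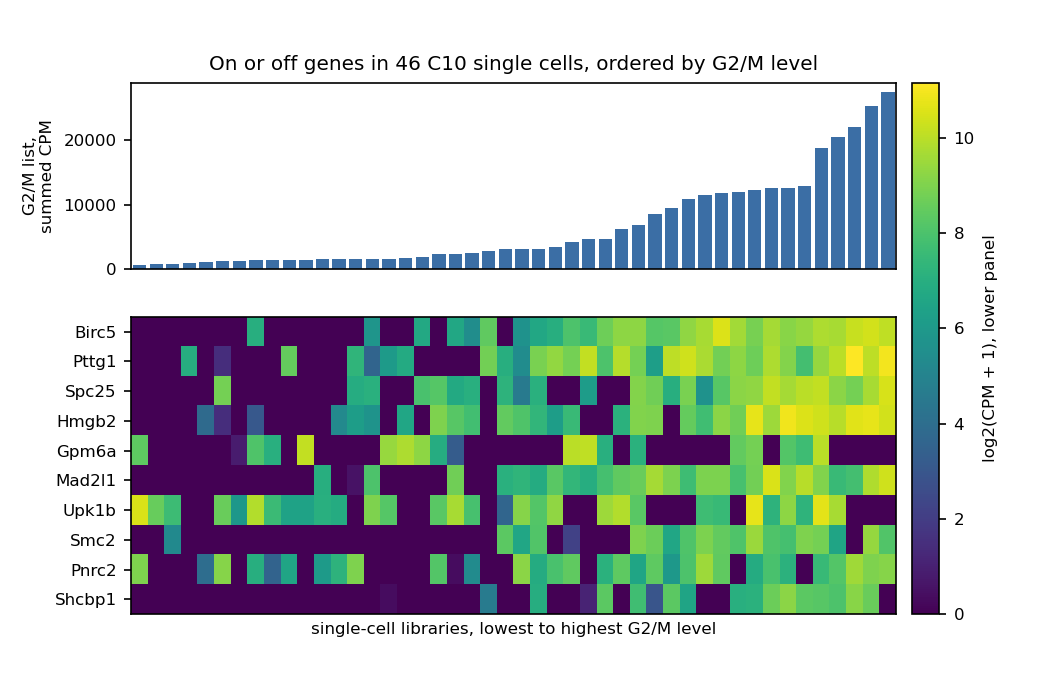
Upper panel: summed CPM of the G2/M list in each of 46 single cells, ordered from low to high. Lower panel: log2(CPM + 1) of the 10 on or off genes in the same order, where Birc5, Pttg1, Hmgb2 and Mad2l1 fill in towards the right and Gpm6a and Upk1b do not. Birc5, Pttg1 and Hmgb2 belong to the list that sets the order, so their rise along it is partly fixed.

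The summed G2/M level ran from 525.9 to 27622 CPM with a median of 3016 CPM over the single cells. It lay under 1000 CPM in 5 cells and over 5000 CPM in 17. The S phase list ran from 522 to 10961 CPM with a median of 2306. Scaled to 1000000 nuclear counts, G2/M and S phase sums had a Spearman rho of 0.68 over 46 cells, G2/M and tubulins 0.66 (1 gene shared), and G2/M and total counts 0.22. The cycle lists went against matrix genes, with a rho of -0.43 between G2/M and the extracellular matrix list. Depth and scaling are shared by all sums.

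Over 27 gene lists, spread between single cells was smallest for translation factors and the proteasome. The SD of log2(summed CPM + 1) was 0.24 for 36 translation factors (12391 to 23378 CPM, median 17776), 0.26 for 31 proteasome genes (5679 to 19012 CPM, median 14737) and 0.29 for 75 nuclear oxidative phosphorylation genes. Actin cytoskeleton genes also had an SD of 0.29, and cytosolic ribosomal proteins 0.40. Without replicate 24, the SD was 0.17 for the proteasome (from 11901 CPM upward), 0.24 for translation factors and 0.32 for ribosomal proteins. The widest lists were nuclear long noncoding RNAs at 1.73, replication-dependent histones at 1.66 and G2/M at 1.61, then S phase at 1.12, chemokines at 1.04 and cholesterol synthesis at 1.00. The noncoding RNA list reached 71692 CPM in replicate 1, where Malat1 alone held 71160 CPM. Replication-dependent histones package newly copied DNA, and their list had a median of 62.9 CPM (0.508 to 451). Of its 29 genes, 0 had counts in all 46 cells, and the median rho between pairs of its genes was -0.07. Scaled to nuclear counts, the histone list had a Spearman rho of 0.30 with S phase and 0.37 with G2/M. The part of low counts in the spread of this list was not tested. The order of SDs in the 46 single cells and the 7 input libraries had a Spearman rho of 0.76 over the 27 lists.

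Chemokine genes varied through a few members. Ccl2, which attracts monocytes, had counts in 37 of 46 cells and ran from 0 to 5464 CPM with a median of 174. Ccl7, a related chemokine, had counts in 37 and ran from 0 to 4379 CPM with a median of 227. Cxcl12 had counts in 46 of 46 and ran from 11.6 to 3854 CPM with a median of 1381. Of the 25 genes in the list, 13 had no count in any single cell.

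Within a list, genes varied together most in G2/M, with a median pairwise rho of 0.50, in mitochondrially encoded proteins (0.49), cytosolic ribosomal proteins (0.40), glycolysis (0.37) and S phase (0.36). Over 5755 genes found in 50% of the cells or more it was 0.02. Among lists, on the same nuclear scale, immediate early genes and YAP and TGF-beta targets had a rho of 0.75 (1 gene shared), and ribosomal proteins and nuclear oxidative phosphorylation 0.73. Extracellular matrix and ER chaperones had 0.65, with 1 gene shared. Ribosomal proteins went against matrix genes at -0.55. Nuclear oxidative phosphorylation and total counts had -0.47, and ribosomal proteins and total counts -0.42, so depth moved with both, and its part was not tested.

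**Figure D5:**
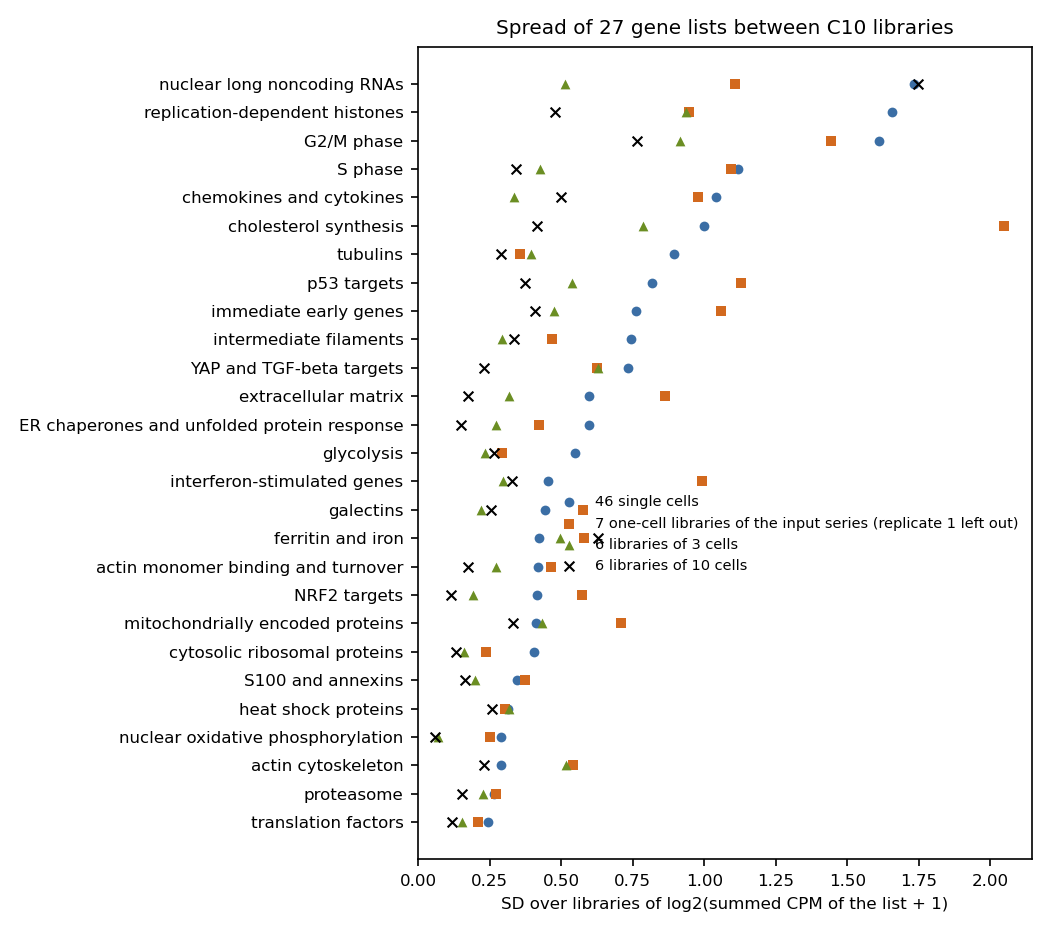
SD of log2(summed CPM + 1) of 27 gene lists over 46 single cells, 7 one-cell libraries of the input series, 6 libraries of 3 cells and 6 of 10 cells. Translation factors are lowest at 0.24 and nuclear long noncoding RNAs highest at 1.73 in the single cells.

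Spread was also compared between 1 and 10 cells of the input series, where lysates of more cells average over them. The mean deviation from the group median was larger in 1 cell for 27 of 27 lists, and for 25 of 27 without replicate 1. By an exact permutation test over every division of the 14 libraries, two-sided, 0 of 27 lists passed at an adjusted p of 0.05, and 2 had an unadjusted p under 0.05. Without replicate 1, 0 passed and 5 had an unadjusted p under 0.05. The difference was therefore not resolved list by list at 8 against 6 libraries.

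Levels of 10 of 27 lists differed between the 46 single cells and the 8 input libraries by a two-sided permutation test with Benjamini-Hochberg adjustment, 7 of them higher in the single cells. Without input replicate 1, 5 lists passed. Cholesterol synthesis was higher in the single cells, at 1589 CPM (456 to 6120) against 866 CPM (0 to 1371). The 0 was replicate 1, and the next input library stood at 30.4 CPM. The log2 difference was 2.95 with replicate 1 (permutation, adjusted p = 0.00144) and 1.84 without it (permutation, adjusted p = 0.00662).

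Ferritin and iron genes were lower in the single cells, with a median of 7629 CPM (3277 to 16219) against 28377 CPM (7259 to 51136) and a log2 difference of -1.64, or -1.89 without replicate 1 (permutation, adjusted p = 0.00027). With replicate 1 included, the call was lost when the list was taken as the mean of log2(CPM + 1), which weights its genes equally (-0.20, permutation, adjusted p = 0.584). p53 targets were lower, at 890 CPM (140 to 2348) against 2220 CPM (907 to 9681), with -1.37 without replicate 1 (permutation, adjusted p = 0.00297). With the mean of log2(CPM + 1) and replicate 1 included, that call was lost as well (-0.44, permutation, adjusted p = 0.375). Replicate 1 had counts for 538 genes only. The mean was not taken without it for either list, so its part in both losses was not tested. Proteasome and cytosolic ribosomal protein lists were higher by 0.51 and 0.45 without replicate 1 (permutation, adjusted p = 0.00297 and 0.0424). With replicate 1 included, the proteasome difference was 0.41 (permutation, adjusted p = 0.00621). With that library still included, the call was lost with CPM over nuclear genes only (0.19, permutation, adjusted p = 0.229). Nuclear scaling was not taken without replicate 1. With replicate 1 included, edgeR called 0 of 31 proteasome genes, against a background of 15.1%. Of 82 ribosomal protein genes it called 5, of which 1 was higher and 4 were lower in the single cells.

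Of the p53 list, Bax, a mediator of cell death, and Ccng1, cyclin G1, were among the 4 of 14 tested genes that edgeR called, all lower in the single cells, with 15.1% as background. Bax had a median of 200 CPM (1.76 to 330) against 462 CPM (212 to 2344), a log2 fold change of -2.25 with an edgeR adjusted p of 2.59e-08. The 2344 CPM was replicate 1, and without it the input series had a median of 360 CPM (212 to 791) and the log2 fold change was -1.43 (edgeR adjusted p 0.000634). Of the cholesterol list, 4 of 21 tested genes were called, all higher, against the same 15.1%. The mitochondrially encoded list, actin cytoskeleton, galectins, extracellular matrix and interferon-stimulated genes passed only with replicate 1 included, and their differences without it were -0.46, 0.24, 0.40, 0.41 and 0.48.

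Some genes followed another at a near-fixed count ratio. Mitochondrial and ribosomal protein genes were left out, which left 1069453 pairs of 1463 genes with a median Spearman rho of 0.02 over the 46 cells. With neighbouring genes (under 100000 bases apart) not counted, 30 pairs had a rho of 0.85 or more. H2az1, a histone variant, and Tmcc1 had a rho of 0.99, and Tmcc1 had 31.1% of the counts of H2az1 in the median cell (27.4% to 36.8% between the tenth and ninetieth percentile). Grik3, a glutamate receptor subunit, had 6.25% of the counts of Ftl1, with a rho of 0.97. Gclm, of glutathione synthesis, had 8.43% of the counts of Ppia, with a rho of 0.89. The longest match between their GENCODE transcripts was 287 bases at 97.9% identity for Ppia and Gclm.

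Of the 23 pairs with both genes in GENCODE, 11 had such a match, of 170 to 2456 bases at 87.6% to 100% identity. Serf2 and Fam221b matched over 514 bases at 95.5%, and Rnaset2a and Rnaset2b over 2456 bases at 99.1%. Ftl1 and Grik3 had no match in these transcripts. The levels of the lower gene of each pair, Gclm among the constant genes included, are uncertain where reads could be split between copies, and that part was not tested.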

How the data were processed

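Read counts per gene were deposited by the authors as 1 file per library, with 40202 gene symbols and 5 closing lines that were left out of all totals. Per the submitters' processing notes FastQC, STAR and HTSeq were used, and versions, build, annotation and strand setting are not given in the sources used here. The members and gene lists were chosen with earlier results of these data known. CPM was computed over all gene counts, and counts per kilobase over nuclear protein-coding genes with GENCODE M21 transcript lengths. Spread was the SD of log2(CPM + 1), with a lowess trend (fraction 0.3). Genes with counts in 25% or more of either set were compared with edgeR 4.0.16 in R 4.3.3 (TMM, quasi-likelihood). Tested on simulated data, this fit also called many unchanged genes, and limma called some. Gene lists were compared with 100000 permutations. DESeq2 1.42.0 and limma 3.58.1 were alternatives. Transcripts were matched with BLAST 2.17.0. Named genes were the 20 most abundant, 15 most constant, 20 most variable and 10 on or off genes, plus the highest and most variable members of each list. Input replicate numbers were not used as pairs. Depth sets precision: 3 counts equal a median of 1.42 CPM per library. No pair of libraries within the single cells or within the 1-cell input series agreed within sampling noise.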

Additional observations from a re-analysis of the deposited data

Results flagged for a closer look

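Of 62 groups of 4 to 10 libraries in which the highest or lowest value was compared with the others, 23 had a value far from the rest, where about 1 in 20 is flagged by chance, or 3.1 groups. Of these, 20 were replicate 1 of the 1-cell input series. It held 430798 gene counts, 64.6% mitochondrial counts and 95.1% reads not aligned. Its summed levels were 16456 CPM for cytosolic ribosomal proteins, 9.29 CPM for translation factors, 4188 CPM for glycolysis and 2.32 CPM for actin monomer binding. They were 0 CPM for tubulins, galectins, ER chaperones, immediate early genes, chemokines, interferon-stimulated genes, histones and nuclear long noncoding RNAs. Extracellular matrix stood at 11.6 CPM, NRF2 targets at 179 CPM, heat shock proteins at 432 CPM, S phase at 2.32 CPM and G2/M at 13.9 CPM.

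Among the libraries of 10 cells, replicate 1 held 17.8% mitochondrial counts, against 6.83% to 10.6% in the others, and 10777 CPM of ferritin and iron genes, against 23112 to 34522 CPM. Replicate 10 held 2096 CPM of S phase genes, against 3309 to 4182 CPM.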

How the results depend on the processing

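Genes called between the 2 one-cell sets numbered 1852 with edgeR, 1156 with limma on log2(CPM + 1), 4365 without a filter, 120 with counts required in 90% of a group's libraries, and 1466 without input replicate 1. With the replicate numbers as a replicate block, 0 genes were called by edgeR (1477 at unadjusted p under 0.05). Same-numbered libraries had correlations of deviations from -0.0552 to 0.128, so the numbers were not taken as pairs. Lists called in level numbered 10, then 17 with the mean of log2(CPM + 1), 5 without input replicate 1 and 0 in a sign-flip over the replicate block (6 at unadjusted p under 0.05, exact). Of the 20 abundant genes, 9 were kept when ranked by share of reads. Of the 15 constant genes, 1 was kept relative to the trend, 9 by CV, 5 with TMM scaling and 9 over all members without input replicate 1. Of the 20 variable genes, 5 were kept by squared CV and 10 over all members without input replicate 1. Leaving out genes in pairs with a near-fixed count ratio, chosen after seeing the data, kept 12 of the 15, and leaving out single cell replicate 24, likewise chosen, kept 8 of the 15 constant and 17 of the 20 variable genes. Shallow libraries limit detection: 3 counts equal up to 36.1 CPM.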
